A study of Mus musculus with 18 samples.

Results

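Transcripts of 10 genes that mark resting, or homeostatic, microglia were followed across frontal cortical RNA of wild-type (WT), APP/PS1 and APP/PS1/FTnKO mice. The 10 genes, P2ry12, P2ry13, Tmem119, Cx3cr1, Sall1, Siglech, Gpr34, Csf1r, Selplg and Aif1, were picked by name as known markers, with no threshold on their values, though earlier results of these data were known, and each had 1 entry among the 55487 genes of the count table. APP/PS1 mice carry amyloid transgenes and deposit amyloid, and APP/PS1/FTnKO mice in addition carry Cre recombinase under the CamKIIα promoter, which removes the floxed β-subunit of farnesyltransferase (FT), the enzyme that attaches a farnesyl lipid to proteins, from forebrain neurons. Microglia themselves are not a target of this Cre. Per the study's methods all 3 genotypes are homozygous for the floxed FT allele and the WT mice are littermates without transgene or Cre, whereas the record of the data calls the WT mice C57BL/6J, so their background is not settled. Mice with the neuronal FT knockout but no amyloid transgenes are not part of these data. Each genotype had 6 mice, 3 females and 3 males, aged 9 to 10 months, and each library came from 1 mouse.

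Microglia are the resident macrophages of the brain, and they depend on signalling through CSF1R for their survival. In the healthy brain they survey their surroundings with motile processes and express receptors that sense nucleotides and the neuronal chemokine fractalkine. Near amyloid plaques they are known to take on another state, in which lysosomal and lipid-handling genes rise and several of the resting markers fall.

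The table holds reads of whole tissue, so a lower level of a microglial transcript can come from fewer microglia or from less RNA per microglial cell, which cannot be told apart here. The total count was 15925432 to 21030935 per mouse. The RNA integrity number (RIN), a measure of degradation whose highest values mark intact RNA, was 8.5 to 8.8 among WT, 7.7 to 8.7 among APP/PS1 and 7.6 to 8.7 among APP/PS1/FTnKO mice. Fntb, the targeted gene, had 7.84 to 14.7 normalized CPM (counts scaled to a common library size by the TMM method) in APP/PS1/FTnKO, 14.2 to 32.1 in APP/PS1 and 14.1 to 32.2 in WT mice, and the counts cover all cell types. WT mouse 19622, a female, stands apart. The cerebellum genes of a marker list summed to 2802 normalized CPM in it and to at most 58.4 in the other WT mice, and its level was the lowest of the 18 mice for 10 of the 10 microglial genes, at 29.9% to 61.1% of the mean of the other WT mice. The study left out 1 WT mouse as an outlier without naming it. Values below are therefore for 17 mice (5 WT, 6 APP/PS1, 6 APP/PS1/FTnKO), with 19622 given apart.

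The 10 genes differ in position and neighbours (GRCm38). P2ry13 and P2ry12 are adjacent on the minus strand of chromosome 3, and both lie inside Med12l, which is read from the opposite strand. Gpr34, on chromosome X, lies inside Cask on the opposite strand. Csf1r shares 873 exonic bases, 15.1% of its exons, with Hmgxb3 on the opposite strand, and Cx3cr1 on chromosome 9 shares 1.73% of its exons with an antisense transcript. The libraries were stranded, but the strand setting of the counting was not given in the sources used here, so that reads of these pairs may not be separated. Med12l, Cask and Hmgxb3 were called in none of the 3 comparisons. Tmem119 and Selplg are close to each other on chromosome 5.

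The sequences just before the start sites are shown as a description, and their part in the levels of the members was not tested. They are 100 bases from RefSeq (GRCm38.p6), 5′ to 3′ on the strand of the gene, for 5 members, and capitals mark GAGGAA or its complement TTCCTC, a core that the myeloid factor PU.1 (Spi1) can bind.
P2ry13 (chr3:59210883-59210982, minus strand): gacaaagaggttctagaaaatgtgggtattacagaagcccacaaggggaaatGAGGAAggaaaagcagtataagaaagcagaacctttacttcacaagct
P2ry12 (chr3:59262986-59263085, minus strand): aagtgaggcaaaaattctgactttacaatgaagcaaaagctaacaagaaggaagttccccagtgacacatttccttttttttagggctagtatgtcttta
Cx3cr1 (chr9:120068297-120068396, minus strand): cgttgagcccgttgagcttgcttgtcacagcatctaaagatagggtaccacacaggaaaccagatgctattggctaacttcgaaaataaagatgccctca
Siglech (chr7:55768084-55768183, plus strand): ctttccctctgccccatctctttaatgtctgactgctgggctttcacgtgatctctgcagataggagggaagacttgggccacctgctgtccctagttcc
Aif1 (chr17:35176053-35176152, minus strand): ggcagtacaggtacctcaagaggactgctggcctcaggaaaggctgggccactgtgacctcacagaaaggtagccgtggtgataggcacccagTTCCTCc
The motif was searched on both strands. It begins 48 bases before the start of P2ry13 and 7 before that of Aif1, on the other strand. Over the 250 bases before the start, 2 of the 8 promoter entries of the 6 members searched held it, against 23.3% of 32851 mouse promoter entries. Tmem119, Gpr34, Selplg and Csf1r were not among the members searched. Another core that factors of this family can bind, GGAAGT, was searched in the same way and is not marked in capitals. It was held by 3 of those 8 entries, against 19.7% of all the entries, and begins 51 bases before the start of P2ry12, within the sequence printed. A match is a description of letters and not a site shown to be bound.

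The order of the 10 genes by level was largely shared between the genotypes. Per length, as FPKM (CPM divided by the exon length), Csf1r, the receptor for the survival factors CSF1 and IL-34, was the highest in every genotype, with means of 18.8 ± 0.471 (SD, n = 5) in WT, 28.2 ± 4.99 (n = 6) in APP/PS1 and 23.5 ± 3.48 (n = 6) in APP/PS1/FTnKO mice. In WT mice P2ry12 followed with 15.2 ± 2.23, then Cx3cr1 with 12.2 ± 0.756 and Tmem119 with 10.6 ± 1.07 FPKM. Selplg, Sall1 and Gpr34, at means of 7.52, 7.36 and 7.29 FPKM, lay within each other's spread, as did Aif1, P2ry13 and Siglech at 5.50, 5.04 and 4.87. In both groups with the APP/PS1 transgenes the mean of Cx3cr1 passed that of P2ry12, though by less than the spread between mice, and Siglech moved from the 10th to the 7th place. All 10 genes passed the filter on low counts.

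**Figure D1:**
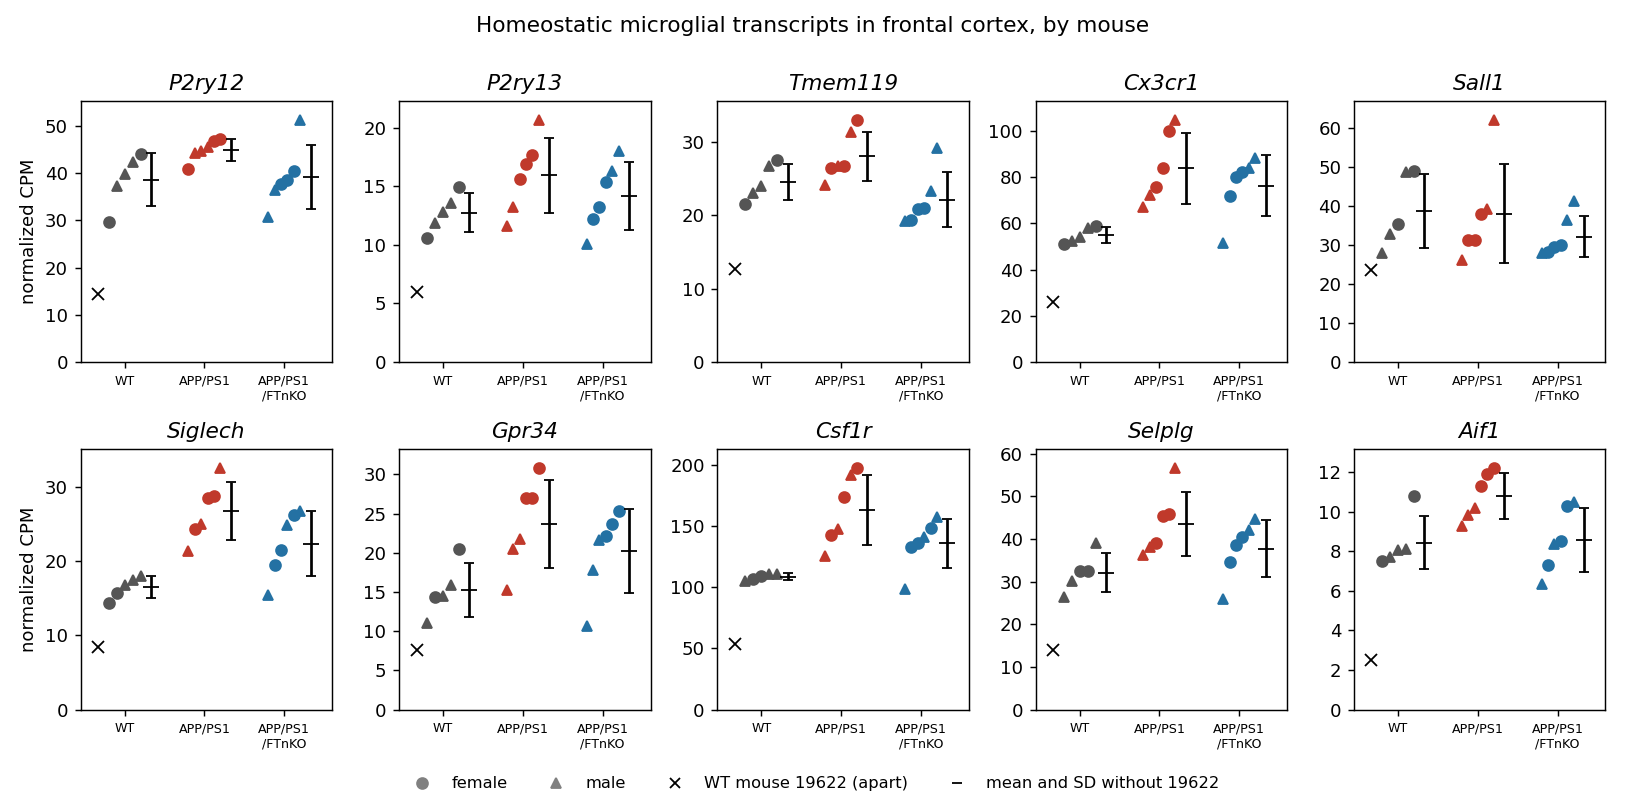
Normalized CPM (vertical axes, from 0) of the 10 genes in each mouse by genotype. Circles are females, triangles males, the black bar is the mean with its SD without 19622, and the cross is WT mouse 19622, which is the lowest mouse in every panel. In Cx3cr1, Siglech and Csf1r the 6 APP/PS1 mice lie above the 5 WT mice.

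The first comparison, APP/PS1 against WT, asks how the homeostatic transcripts stand in cortex with amyloid. Their levels were higher or not detectably different, and the test found none of the 10 lower. Siglech, Csf1r and Cx3cr1 rose 1.49-fold to 1.63-fold, while P2ry12 and Tmem119, a receptor for nucleotides and a transmembrane protein used to tell microglia from blood-derived macrophages, had fitted folds of 1.17 and 1.15 that did not pass the test.

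Siglech, a sialic acid-binding receptor, had 14.4, 15.7, 16.8, 17.5 and 18.04 normalized CPM in the WT mice. In APP/PS1 mice its lowest, median and highest values were 21.4, 26.7 and 32.5 normalized CPM. The groups do not overlap, and the log2 fold change (log2FC) was 0.70 (SE 0.13, FDR = 0.0079 over 17414 genes in edgeR's quasi-likelihood test).

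Csf1r had 105, 106, 109, 110 and 111 normalized CPM in the WT mice, the most even of the 10 genes. In APP/PS1 mice it ran from 126 over a median of 160 to 197 normalized CPM, so that every APP/PS1 mouse lay above every WT mouse. Its log2FC was 0.58 (SE 0.11, FDR = 0.0119, edgeR).

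Cx3cr1, the receptor for fractalkine, had 51.3, 52.4, 54.3, 58.1 and 59.0 normalized CPM in the WT mice. The lowest, median and highest APP/PS1 mice had 67.0, 79.8 and 105, again without overlap. The log2FC was 0.60 (SE 0.13, FDR = 0.0222, edgeR).

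These 3 of 10 genes were called higher, beside 1.32% of all genes tested, and 3 of 10 did not overlap with all APP/PS1 mice higher, beside 1.71% of all genes. DESeq2's Wald test, the study's tool, called 4, Gpr34 in addition (FDR = 0.0136), beside 2.2% of all genes. Gpr34, a receptor for the lipid lysophosphatidylserine, had 11.03 to 20.5 normalized CPM in WT and 15.3 to 30.8 in APP/PS1 mice, which overlap. Its log2FC was 0.57 (SE 0.15, FDR = 0.0755, edgeR). In the fit over all 18 mice edgeR called the same 3 genes, beside 1.13% of all genes.

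The median log2FC over the 10 genes was 0.39, beside -0.0023 over all genes tested, and 9 of the 10 fitted values were above 0. P2ry12, the ADP receptor that steers microglial processes, had 29.6, 37.3, 39.8, 42.4 and 44.0 normalized CPM in WT and 40.8, 45.1 and 47.2 as the lowest, median and highest of APP/PS1 mice. The groups overlap, although 5 of the 6 APP/PS1 mice lie above every WT mouse, and the log2FC was 0.22 (SE 0.11, 95% interval -0.01 to 0.45, FDR = 0.374, edgeR). P2ry13, its neighbour and also an ADP receptor, had a log2FC of 0.32 (SE 0.16, FDR = 0.368). Tmem119 had 21.6 to 27.5 normalized CPM in WT and 24.2 to 32.96 in APP/PS1 mice, which overlap, with a log2FC of 0.20 (SE 0.11, interval -0.03 to 0.43, FDR = 0.416).

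Selplg, the ligand of P-selectin, had 26.4 to 39.1 normalized CPM in WT and 36.3 to 56.7 in APP/PS1 mice, with a log2FC of 0.44 (SE 0.14, FDR = 0.151, edgeR). Aif1, which encodes the protein IBA-1 that is widely stained to show microglia, had 7.50 to 10.8 and 9.29 to 12.2 normalized CPM. Its log2FC was 0.34 (SE 0.12, FDR = 0.230). Both overlap between the groups.

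**Figure D2:**
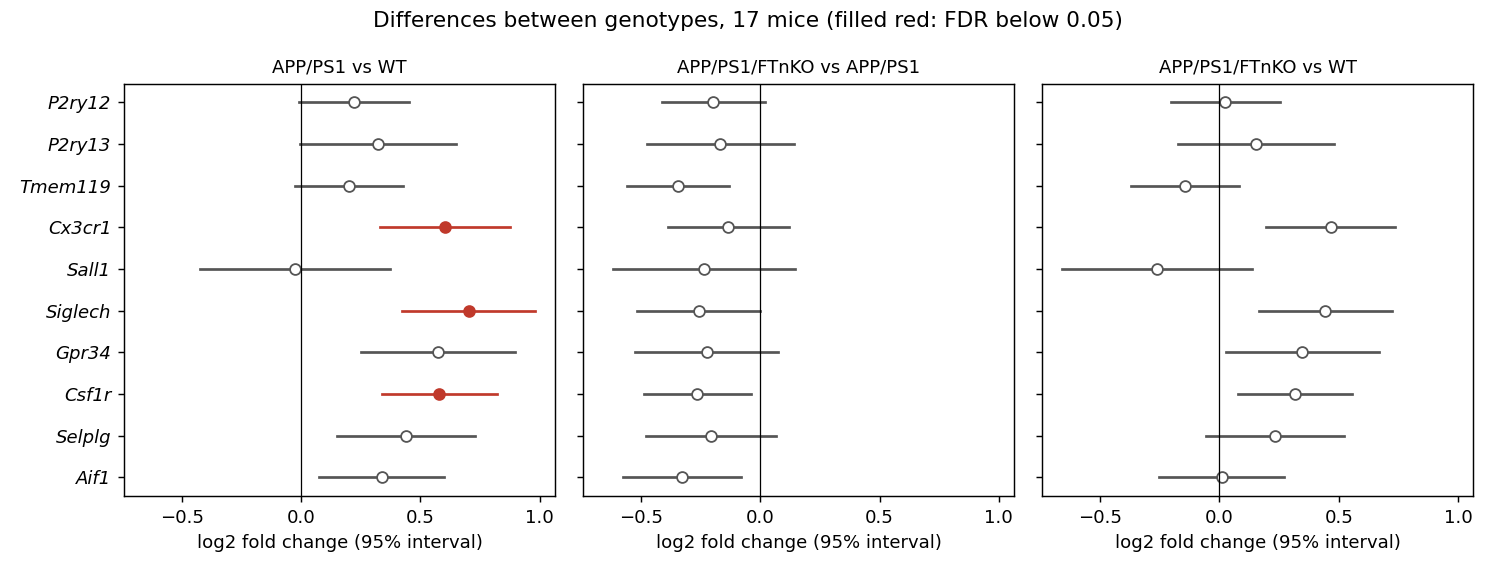
Log2FC (horizontal axis) of each gene with its 95% interval in the 3 comparisons of genotypes, from edgeR's fit over 17 mice. Filled red circles passed an FDR of 0.05. These are Cx3cr1, Siglech and Csf1r in APP/PS1 against WT, and all 10 circles lie left of 0 in APP/PS1/FTnKO against APP/PS1 without passing.

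RNA integrity differed between the genotypes, with a median RIN of 8.7 in WT, 8.2 in APP/PS1 and 8.6 in APP/PS1/FTnKO mice. With RIN as a further term in edgeR's fit, 0 of the 10 genes were called in APP/PS1 against WT, and Siglech, Csf1r and Cx3cr1 had log2FC of 0.54, 0.41 and 0.41 (FDR = 0.127, 0.156 and 0.260). In the 14 mice whose RIN reached 8, a setting added after the data had been seen, 0 genes were called as well, with an FDR of 0.0661 for Csf1r, 0.0861 for Siglech and 0.106 for Cx3cr1. In both settings 9 of the 10 genes remained above 0. The share of all genes called in these settings is not given here. A loss of calls in the members therefore cannot be told apart from one over all genes. Cx3cr1 was not called without WT mouse 18944, 19053, 19718 or 19721 or APP/PS1 mouse 19723 or 16975, and without 19053 Csf1r was not called either, while without APP/PS1 mouse 19744 or APP/PS1/FTnKO mouse 18973 Gpr34 was called in addition. Siglech was called with each of the 17 mice left out in turn.

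Counts were also set against that of Csf1r in the same library, a ratio that does not depend on library scaling. The P2ry12 count was 35.6% ± 4.93 (SD, n = 5) of the Csf1r count in WT, 28.1% ± 4.31 (n = 6) in APP/PS1 and 29.1% ± 4.38 (n = 6) in APP/PS1/FTnKO mice. The groups overlap, and the difference on the log2 scale was -0.34 for APP/PS1 against WT (two-sided exact permutation test over mice, p = 0.0368, p = 0.0747 after Benjamini-Hochberg adjustment over the 3 pairs of genotypes). It was -0.29 for APP/PS1/FTnKO against WT (exact permutation p = 0.0498, adjusted 0.0747) and 0.05 for APP/PS1/FTnKO against APP/PS1 (p = 0.701). The smallest p this test allows is 0.00216 in each of the 3 pairs. None of the 3 differences passed after adjustment.

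The same ratio fell for most genes of the table, since Csf1r itself rose in APP/PS1: the mean ratio to Csf1r was lower in APP/PS1 than in WT mice for 96.3% of the other genes tested, and in 47.5% the groups did not overlap. Among the members, Tmem119 was the only gene whose ratio did not overlap, with 20.3% to 25.1% of the Csf1r count in WT and 13.4% to 19.2% in APP/PS1 mice. The mean ratio of Cx3cr1 was 50.7% ± 2.42 in WT and 51.5% ± 2.49 in APP/PS1 mice, that of Siglech 15.2% ± 1.39 and 16.5% ± 0.981, and that of Gpr34 14.1% ± 3.10 and 14.6% ± 3.03. These 3 genes kept pace with Csf1r within their spread.

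**Figure D3:**
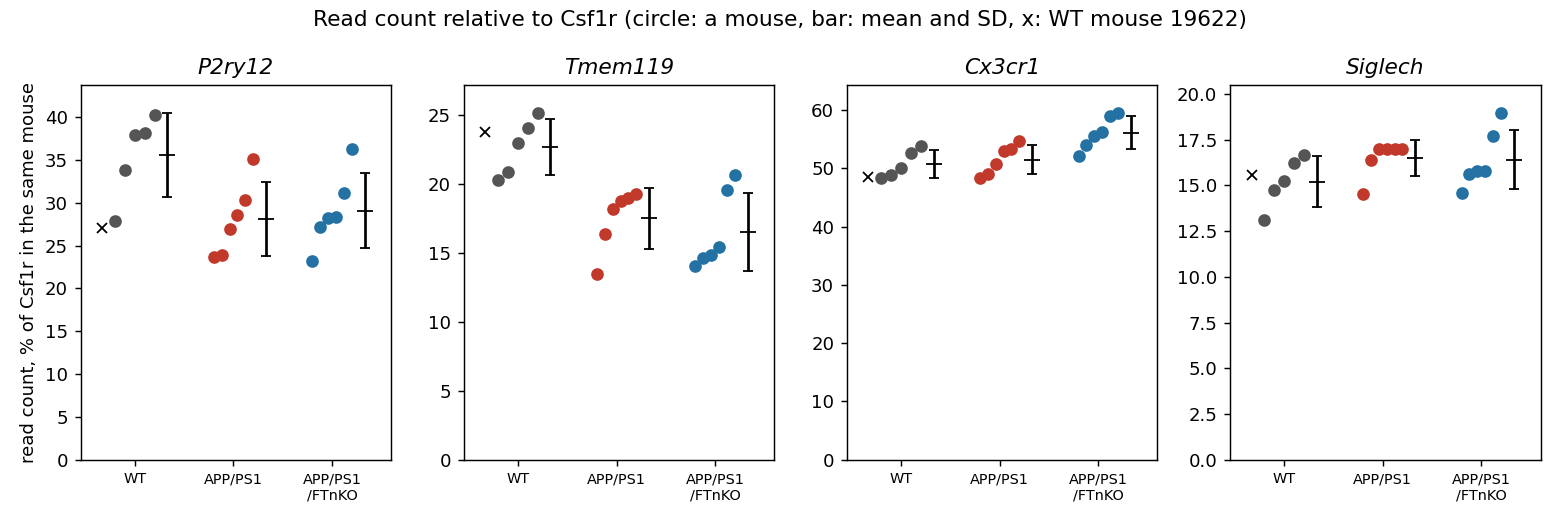
Read count of P2ry12, Tmem119, Cx3cr1 and Siglech as a percentage of the Csf1r count in the same mouse (vertical axes, from 0), by genotype. Circles are mice, bars the mean and SD without 19622, and crosses WT mouse 19622. The circles of Tmem119 are separate between WT and APP/PS1, while those of Cx3cr1 lie between 48.3% and 54.6% in both.

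Other lists of genes place the 10 transcripts among those of microglia as a whole. Of 18 further homeostatic genes, 5 rose in APP/PS1 against WT with a median log2FC of 0.47 over the list. Fcrls, an Fc receptor-like protein, rose by 1.497 on the log2 scale (FDR = 0.000255, edgeR). Its fitted value lies above those of the 10 members.

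Of 22 pan-myeloid genes 16 rose, with a median of 0.96, among them Cd68, a lysosomal membrane protein, by 2.02, Mpeg1, a pore-forming protein of macrophages, by 1.84 and C1qa, a chain of complement C1q, by 1.43 on the log2 scale. Of 18 genes of plaque-associated microglia 15 rose, with a median of 1.94. Cst7, an inhibitor of cysteine proteases, had 0 to 0.177 normalized CPM in WT and 11.7 to 53.4 in APP/PS1 mice, so that its fitted log2FC, the point farthest to the right in the plot of the lists, depends on the handling of counts near 0. The microglial receptor Trem2 rose by 2.37. The 10 homeostatic genes thus had the smallest median of these 4 microglial and myeloid lists, which is a description of counts and medians, not a test between lists. The microglial transcription factors, a list outside these 4, had a slightly lower median of 0.37.

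Regulators and partners of the members were mixed. Of 12 microglial transcription factors 4 rose in APP/PS1 (median over the list 0.37): Irf8, by 1.54, Irf5, by 0.96, Spi1, which encodes PU.1, by 0.94, and Cebpa, by 0.72. Of 12 tested ligands and partners 2 rose. They were Tyrobp, the signalling adaptor that pairs with Trem2 and Siglec-H, by 2.28 (FDR = 9.9e-05, edgeR), and Csf1, a ligand of Csf1r, by 0.76 (FDR = 0.00664). Of 11 other P2Y and purinergic genes 0 were called, P2ry1 with -0.03 and P2ry2 with 0.15 on the log2 scale, and DESeq2 called 1.

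Markers of other cells were followed beside these. Of 9 tested genes of border macrophages and monocytes 0 were called, and their sum over the 12 listed genes was 23.0 to 34.3 normalized CPM among WT, 24.1 to 42.0 among APP/PS1 and 17.4 to 33.4 among APP/PS1/FTnKO mice. Mrc1, the mannose receptor of border macrophages, had a log2FC of -0.07 (SE 0.23) in APP/PS1 against WT. Of 4 tested genes of blood and lymphocytes 0 were called, and 1 or 2 of the 11 listed were at 0 in every mouse of a genotype. Gfap, the filament protein of reactive astrocytes, was the 1 of 8 astrocyte genes called in edgeR, with a log2FC of 2.78. DESeq2 called Aqp4, the water channel of astrocytes, in addition (log2FC 0.46 in edgeR, FDR = 0.0536 in edgeR and 0.00636 in DESeq2). In edgeR 0 of 8 oligodendrocyte, 0 of 8 neuronal, 0 of 8 endothelial and 0 of 5 tested cerebellar genes were called.

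**Figure D4:**
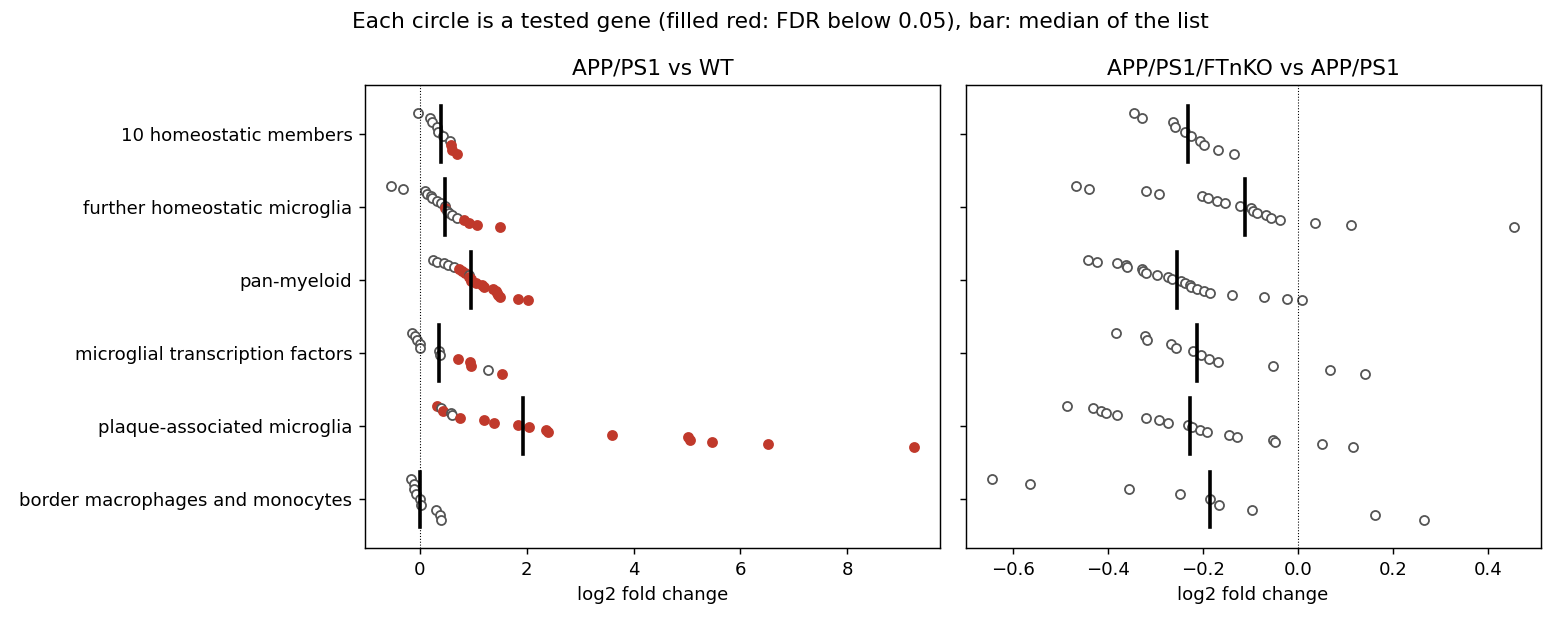
Log2FC (horizontal axes, with their own scale in each panel) of the 10 members and of the genes of 5 lists in APP/PS1 against WT (left) and APP/PS1/FTnKO against APP/PS1 (right). Each circle is a gene, filled red where it passed an FDR of 0.05, and the bar is the median of the list. On the left the median of the members is 0.39 and that of the plaque-associated genes 1.94, and on the right no circle is filled.

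The second comparison, APP/PS1/FTnKO against APP/PS1, asks what the loss of FT from neurons does to the same transcripts in cortex with amyloid. The fitted level was lower for 10 of the 10 genes, by 0.14 to 0.34 on the log2 scale, and none passed the FDR threshold in edgeR (0 called, beside 0.144% of all genes tested as lower) or in DESeq2 (0 called, beside 0.898%). At an unadjusted p below 0.05 edgeR gave 3 of 10, Tmem119, Aif1 and Csf1r, beside 5.69% of all genes with a lower level. The median over the 10 was -0.23, beside -0.0016 over all genes tested. The genes vary together between mice, so 10 lower values are not 10 separate observations.

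Tmem119 had the largest difference. It was 24.2, 26.7 and 32.96 normalized CPM as the lowest, median and highest of APP/PS1 mice and 19.3, 20.9 and 29.1 in APP/PS1/FTnKO mice. Of the 6 APP/PS1/FTnKO mice 5 lay below every APP/PS1 mouse, and mouse 19720, with 29.1, lay among them. The log2FC was -0.34 (SE 0.10, interval -0.56 to -0.13, FDR = 0.180 in edgeR and 0.0676 in DESeq2).

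Aif1 was 9.29, 10.7 and 12.2 normalized CPM as the lowest, median and highest of APP/PS1 mice and 6.33, 8.44 and 10.5 in APP/PS1/FTnKO mice. The groups overlap, and the mean of the latter, 8.55 ± 1.63 (SD, n = 6), was close to that of the WT mice, 8.42 ± 1.34 (n = 5). Its log2FC was -0.33 (SE 0.12, FDR = 0.282, edgeR). Csf1r ran from 98.8 to 157 normalized CPM in APP/PS1/FTnKO mice and overlapped with the 126 to 197 of APP/PS1 mice, with a log2FC of -0.26 (SE 0.11, interval -0.49 to -0.04, FDR = 0.346).

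P2ry12 showed the same arrangement as Tmem119, with 5 of 6 APP/PS1/FTnKO mice, at 30.7 to 40.4 normalized CPM, below every APP/PS1 mouse and mouse 19720, at 51.2, above all of them. The groups therefore overlap, and the log2FC was -0.20 (SE 0.10, FDR = 0.491, edgeR). For Siglech it was -0.26 (SE 0.12, FDR = 0.435), with 15.5 to 26.8 normalized CPM in APP/PS1/FTnKO mice. The other members, Sall1, Gpr34, Selplg, P2ry13 and Cx3cr1, had values of -0.24, -0.23, -0.21, -0.17 and -0.14 with FDR of 0.594 to 0.723.

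Mouse 18973, an APP/PS1/FTnKO male with a RIN of 8.6, was the lowest of its genotype for 10 of 10 members, and mouse 19720, also a male with a RIN of 8.6, the highest for 5. In APP/PS1 mice, 19744 was the lowest for 8 and 16975 the highest for 5 members. With each of the 17 mice left out in turn the 10 fitted values stayed below 0 and 0 were called. The 10 values were also below 0 with RIN as a further term (median -0.19) and in the 14 mice whose RIN reached 8 (median -0.15). The fit over 18 mice called 0 of 10 members, beside 0.0116% of all genes.

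No list of other genes had a called member in this comparison: 0 of 18 further homeostatic, 0 of 22 pan-myeloid, 0 of 18 plaque-associated genes, 0 of 12 transcription factors, 0 of 12 ligands and partners and 0 of 11 purinergic genes passed in edgeR or DESeq2. Their medians were -0.11, -0.26, -0.23, -0.21, -0.06 and -0.09 on the log2 scale, with 21 of 22 pan-myeloid and 16 of 18 plaque-associated genes below 0. The neuronal ligands of the receptors among the members were level, with Cx3cl1, which encodes fractalkine, at -0.01 (SE 0.09) and Il34, the neuronal ligand of Csf1r, at -0.02 (SE 0.09).

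Of the markers of other cells, 0 of 8 astrocyte, 0 of 8 neuronal, 0 of 8 oligodendrocyte, 0 of 8 endothelial and 0 of 9 border macrophage and monocyte genes were called by either tool, with medians of -0.02, -0.04, 0.03, -0.01 and -0.19 on the log2 scale. The neuronal and astrocyte genes with the lowest fitted values, named after these were seen, were Camk2a, Slc17a7 and Aqp4. Camk2a, a kinase subunit of excitatory neurons, was at -0.42 (SE 0.13, unadjusted p = 0.00418, FDR = 0.196 in edgeR and 0.05001 in DESeq2). Slc17a7, a vesicular glutamate transporter, was at -0.38 (SE 0.11, unadjusted p = 0.00334, FDR = 0.177 in edgeR and 0.0504 in DESeq2). Aqp4, the water channel of astrocytes, was at -0.31 (SE 0.11, unadjusted p = 0.0104, FDR = 0.269 in edgeR and 0.139 in DESeq2). The summed level of the 8 neuronal genes was 8121 to 10793 normalized CPM among APP/PS1 and 6932 to 8851 among APP/PS1/FTnKO mice, with no marker at 0, so that the groups overlapped. The part of these markers in the values of the members was not tested.

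The third comparison, APP/PS1/FTnKO against WT, shares its groups with the other 2, and its values are given beside theirs for the same genes. Cx3cr1 had 51.5 to 88.4 normalized CPM in APP/PS1/FTnKO mice, of which 5 of 6 lay above every WT mouse, and Siglech 15.5 to 26.8, also with 5 of 6 above. Their log2FC were 0.47 (SE 0.13, FDR = 0.0509) and 0.44 (SE 0.13, FDR = 0.0675), so that edgeR called 0 of the 10 genes, beside 3.87% of all genes in either direction, and DESeq2 called these 2 as higher (FDR = 0.0104 and 0.0226), beside 4.34%. The mouse that overlaps with WT in both genes is 18973. Without it edgeR called 4 members, Cx3cr1, Siglech, Gpr34 and Csf1r. It then called 987 genes over all, beside 674 with the 17 mice.

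Csf1r, at 0.32 (SE 0.11, FDR = 0.117, edgeR), Gpr34, at 0.35 (SE 0.15, FDR = 0.191), and Selplg, at 0.23 (SE 0.14), were between. P2ry12 with 0.02 (SE 0.11, interval -0.20 to 0.25), Aif1 with 0.01 (SE 0.12) and Tmem119 with -0.14 (SE 0.11, interval -0.37 to 0.08) had means near those of the WT mice. In the same comparison edgeR called 14 of 22 pan-myeloid and 15 of 18 plaque-associated genes higher, along with 5 of the 18 further homeostatic genes (among them Fcrls by 1.06, Sparc, Hpgds and Olfml3), 2 transcription factors (Irf8 and Irf5), Tyrobp and Csf1. Itgav, an integrin chain, fell by 0.19 and the neuronal glutamate transporter gene Slc17a7 by 0.46. Gfap rose by 2.53, and 0 purinergic, border macrophage, blood, oligodendrocyte, endothelial or cerebellar genes were called.

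Sall1, a zinc finger transcription factor that maintains microglial identity, had the fitted log2FC nearest to 0 of the 10 members in APP/PS1 against WT. It had 27.8, 32.9, 35.4, 48.7 and 48.9 normalized CPM in WT mice and 26.2, 34.7 and 62.0 as the lowest, median and highest of APP/PS1 mice. The groups overlap fully and the log2FC was -0.03 (SE 0.19, interval -0.42 to 0.37, FDR = 0.968, edgeR). In APP/PS1/FTnKO mice it had 27.8, 29.7 and 41.2 normalized CPM as the lowest, median and highest.

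The genes whose levels were most like those of Sall1 between mice, as Pearson's r of the deviations from the genotype means of log2 CPM over 17 mice, were Th, which encodes tyrosine hydroxylase (r = 0.94), Gprc5b, Lgr6, Dlx1 and Dnah11. Th and Dlx1 are known in interneurons of the olfactory bulb. A list of 10 olfactory bulb genes, written after Th and Dlx1 had been seen and so no independent support, had a median r of 0.89 with Sall1 over its 9 tested genes. The sum of the list was 212 normalized CPM in mouse 16975, where Sall1 was at 62.0, 176 in WT mouse 19721 and 173 in WT mouse 18944, where Sall1 was at 48.7 and 48.9. In mouse 19619 the sum was 142 and in 19720 128, with Sall1 at 39.2 and 41.2. The other 12 mice had sums of 46.6 to 99.1 and Sall1 of 26.2 to 37.9.

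Across the 17 mice, the log2 levels of Sall1 and of this sum had a Pearson's r of 0.92 and a Spearman's rho of 0.91, and r was 0.87 without the 2 mice farthest from the median sum (16975 and 19721). Within WT, APP/PS1 and APP/PS1/FTnKO mice r was 0.996, 0.90 and 0.87. No p is given, since the list was chosen from the same values, and the points share their libraries. The median sums were 99.1 in WT, 78.8 in APP/PS1 and 66.7 in APP/PS1/FTnKO mice, and the part of these genes in the values of Sall1 was not tested.

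**Figure D5:**
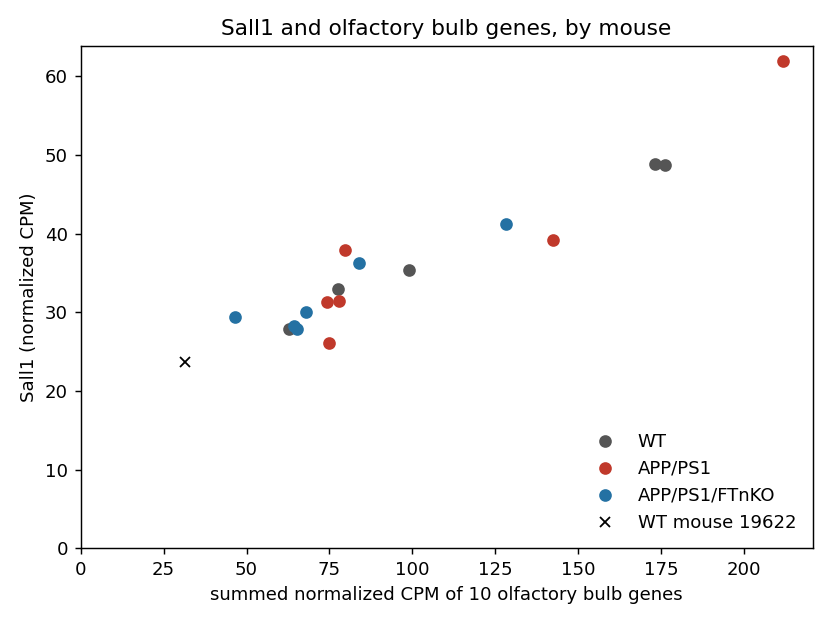
Normalized CPM of Sall1 (vertical axis) against the summed normalized CPM of 10 olfactory bulb genes (horizontal axis) in each mouse, colored by genotype, with WT mouse 19622 as a cross. The mouse with the highest sum, 212, has the highest Sall1, 62.0, and mice of all 3 genotypes lie along the same slope.

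Between mice of a genotype the members varied together. The 45 pairs of the 10 genes had a median r of 0.56 for the deviations of their log2 CPM from the genotype means over 17 mice, the 36 pairs without Sall1 a median of 0.60, and the highest was 0.96, between Cx3cr1 and Csf1r. The r of a member with the mean of the other 9 ranged from 0.60 for Sall1 over 0.64 for Gpr34 and 0.65 for P2ry12 to 0.90 for Cx3cr1. By this r Cx3cr1 ranked 7th of 17405 genes, but P2ry12 1134th, Gpr34 1190th and Sall1 1379th. The median r of all genes tested with the mean of the members was 0.03. The most like genes outside the 10 were Scamp2, which encodes a membrane protein of secretory vesicles (r = 0.93), Pald1, Erg, an endothelial transcription factor, Fgfrl1 and S100a1.

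Markers of other cell types moved with the members within genotypes, too. The median r with the mean of the members was 0.79 over 8 astrocyte genes, with Aqp4 at 0.91, against 0.75 over 22 pan-myeloid, 0.68 over 18 plaque-associated, 0.56 over 18 further homeostatic, 0.53 over 8 endothelial and -0.19 over 8 neuronal genes. The summed level of the astrocyte list was 5140 to 6025 normalized CPM among WT, 5366 to 7605 among APP/PS1 and 5417 to 7104 among APP/PS1/FTnKO mice, and no defining marker of these cells was at 0. The points share library, depth and RNA integrity, and the part of these in the values of the members was not tested.

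Female and male mice were compared in the same fit. Gpr34 was higher in females by 0.48 on the log2 scale (SE 0.12), with means of 17.4 against 13.8 normalized CPM in WT, 28.3 against 19.2 in APP/PS1 and 23.7 against 16.7 in APP/PS1/FTnKO mice. It had the smallest p of the members but did not pass over all genes (FDR = 0.444 in edgeR, 0.0724 in DESeq2). Of the other 9 genes none had an unadjusted p below 0.05, beside 6.7% of all genes, and 0 of 10 were called, beside 0.0689% of all genes. A sex by genotype interaction was called for 0 of 10 in edgeR, beside 0% of all genes, and for 0 in DESeq2, beside 0.0172%, with 0 at an unadjusted p below 0.05 (smallest p 0.332), beside 2.65% of all genes at that p. With 2 WT females and 3 mice in every other cell, differences between the sexes would have to be large to be detected.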

How the data were processed

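Stranded mRNA libraries were made from frontal cortex of 18 mice. Reads were trimmed (Trimmomatic 0.33), mapped to GRCm38 (HISAT2 2.1.0) and counted by the authors with featureCounts, while its version and annotation were not stated in the sources used here. The deposited values are raw read counts per gene, with 15925432 to 21030935 per mouse. At the mean count of a genotype, counting error was a coefficient of variation of at most 8.11% for the members, and it is larger in single mice with fewer counts.

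Genotypes were taken from the labels. Under R 4.3.3, the quasi-likelihood test of edgeR 4.0.16 was fitted to 17 mice with sex and genotype as terms (TMM scaling, 17414 genes kept by filterByExpr at a minimum count of 10), with Benjamini-Hochberg adjustment at 0.05. DESeq2 1.42.0, other filters and scalings, RIN, all 18 mice and each mouse left out were alternatives. DESeq2 values left without an adjusted p were not counted. The tools were tested on simulated data. Likeness used log2 CPM with a prior count of 2. FPKM used exon lengths of a GENCODE annotation of GRCm38, which covered 99.5% of the genes. p-values set differences between groups against the spread between these mice. The 0 unused columns leave no part of the table aside.

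The members and lists were chosen with earlier results of these data known. Named are the 10 members, of each list the called genes, at most 5 by p, or its first 2, and the 5 most like genes. Genes near Sall1, and the RIN minimum, were chosen after their values were seen, and some genes of the rule are left to counts or are not reported here.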

Additional observations from a re-analysis of the deposited data

Results flagged for a closer look

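Of the 30 groups of mice tested (10 genes in 3 genotypes), 2 held a mouse whose gap to its nearest neighbour was large for the range of its group by Dixon's test, where chance gives about 1 in 20.

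Sall1 stood at 62.0 normalized CPM in the APP/PS1 male 16975, with the next mouse of that genotype at 39.2, a gap of 0.636 of the whole range (n = 6). The same mouse had the highest sum of olfactory bulb genes, 212 normalized CPM, and a RIN of 7.7, the lowest of its genotype.

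Aif1 stood at 10.8 normalized CPM in the WT female 18944, with the other 4 WT mice at 7.50 to 8.10, a gap of 0.818 of the range (n = 5). This mouse was the highest WT mouse for 7 of the 10 members and had a RIN of 8.7.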

How the results depend on the processing

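In APP/PS1 against WT mice, edgeR called 3 members, and 5 with no filter on low counts, 0 with RIN as a covariate, 0 in mice with a RIN of at least 8 and 1 to 4 with a mouse left out (1 without WT mouse 19053). With a mouse left out, edgeR called 124 genes over all (19053 omitted) to 465 (19744, of APP/PS1, omitted). In APP/PS1/FTnKO against WT mice it called 0, and DESeq2 called 2 on 17 and 2 on 18 mice, RLE normalization 1, no filter 3, a minimum count of 50 1, no sex term 1, a fit of only the genotypes compared 1 and leaving out a mouse 0 to 4 (4 without APP/PS1/FTnKO mouse 18973). Over all genes of this comparison, leaving out a mouse gave 206 calls (without WT mouse 19053) to 987 (without 18973). For DESeq2 on 18 mice and for changes of filter, scaling, terms, RIN and genotypes fitted, the number over all genes is not given here. In APP/PS1/FTnKO against APP/PS1 mice 0 were called in every setting run, as for the sex by genotype interaction. Between the sexes 0 were called, and 1 with no filter. What made the counts differ between settings was not tested.

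The sign turned for Sall1 in APP/PS1 against WT (log2 0.0636 in 18 mice with edgeR and 0.0584 with DESeq2, -0.217 to 0.12 with a mouse left out), and in APP/PS1/FTnKO against WT for Aif1 (-0.0187 with RIN, -0.00175 with a RIN of at least 8, -0.0962 to 0.0967 with a mouse left out) and for P2ry12 (-0.0793 to 0.0995 with a mouse left out), all near 0 from the start.

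The P2ry12 to Csf1r ratio in APP/PS1 against WT was -0.28 on the log2 scale in 18 mice (two-sided exact permutation p = 0.0758), -0.13 with Aif1 in place of Csf1r (p = 0.221) and -0.43 to -0.29 with a mouse left out. In APP/PS1/FTnKO against WT it was -0.23 in 18 mice (exact p = 0.121), 0.0038 with Aif1 (p = 0.981) and -0.38 to -0.23 with a mouse left out, and in APP/PS1/FTnKO against APP/PS1 -0.0195 to 0.114. The direction of this ratio thus rests on the gene it is set against. No paired analysis was possible because the labels give the mice of different genotypes no shared number.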
